A study of Mus musculus with 36 samples.

Results

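Expression of the 8 clock repressor genes, Per1, Per2, Per3, Cry1, Cry2, Ciart, Bhlhe40 and Bhlhe41, was compared between diets in mouse liver and inguinal white adipose tissue (iWAT, the fat depot under the skin of the groin). The genes were picked by symbol. All 8 were listed in each of the 6 gene comparisons, out of 16060 genes listed in at least 1 of them, and 16 of their transcripts were listed among 38061 transcripts. The data came from bulk RNA sequencing of 36 libraries from 20 C57BL/6J mice, a wild-type laboratory strain. Mice had been kept for 16 weeks on calorie restriction (CR), on time-restricted feeding without calorie restriction (TR, labelled TR.al) or on food available ad libitum (AL), and each diet gave 6 liver and 6 iWAT libraries. The question behind the design was whether a daily fast with no cut in calories is enough to produce the expression changes of CR. Not given in the sources used here are the sex and age of the mice, the time of day at sampling and the hours since the last meal.

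In the circadian clock, the transcription factors CLOCK and BMAL1 (the product of Arntl) bind E-box sequences and switch on the genes of their own repressors. PER and CRY proteins build up, enter the nucleus together and block CLOCK and BMAL1, so that their own transcription falls again over the course of a day. CIART (also called CHRONO) binds BMAL1 and represses it, and the DEC proteins, DEC1 from Bhlhe40 and DEC2 from Bhlhe41, are repressors that bind the same E-boxes. In liver and other peripheral organs, the hours at which food is eaten are a strong time cue for this loop. The labels give no series of sampling times, and the sampling hour is not known. A different daily mean of a transcript and a different timing of its daily rhythm therefore cannot be told apart here.

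The upstream sequences below are shown because each window holds a clock motif, while the liver values of Cry1 and those of Ciart and Bhlhe41 lay on opposite sides of the AL level. RefSeq windows of GRCm38.p6 were found for 6 of the 8 genes, with 2 windows for Per1; there was none for Per2 and Bhlhe40. Each window ran from 250 bases before a RefSeq gene start to 50 after it. The stretch printed ends before the first base that GENCODE M21 places in an exon of the gene. Distances of motifs are counted from the RefSeq start. For Cry1, Ciart, Bhlhe41 and Per1 that start lies inside the span of the gene in GENCODE M21. Capitals mark the E-box CACGTG, its variant CACGTT (which reads AACGTG on the other strand) and the D-boxes TTATGTAA and TTATGCAA, the last 2 being sites of the PAR bZIP factors and of NFIL3. The REV-ERB and ROR element TAGGTCA and the cAMP response element TGACGTCA were searched as well. Both strands were searched for every motif, and no motif found overlapped another.
Cry1, chr10:85185065-85185304, minus strand, 240 bases: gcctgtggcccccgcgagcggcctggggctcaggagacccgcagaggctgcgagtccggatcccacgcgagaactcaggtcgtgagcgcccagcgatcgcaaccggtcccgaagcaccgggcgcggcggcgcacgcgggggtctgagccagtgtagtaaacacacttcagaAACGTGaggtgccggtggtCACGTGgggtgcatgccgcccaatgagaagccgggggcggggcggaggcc
Ciart, chr3:95882252-95882478, minus strand, 227 bases: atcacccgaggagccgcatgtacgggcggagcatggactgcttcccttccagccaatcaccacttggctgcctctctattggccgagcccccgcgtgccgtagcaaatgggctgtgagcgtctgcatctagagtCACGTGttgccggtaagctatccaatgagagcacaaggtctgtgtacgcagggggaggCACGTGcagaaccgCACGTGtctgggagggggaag
Bhlhe41, chr6:145865559-145865670, minus strand, 112 bases: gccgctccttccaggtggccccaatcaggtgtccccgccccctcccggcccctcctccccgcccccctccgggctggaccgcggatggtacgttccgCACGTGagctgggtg
Per1, chr11:69098699-69098947, plus strand, 249 bases: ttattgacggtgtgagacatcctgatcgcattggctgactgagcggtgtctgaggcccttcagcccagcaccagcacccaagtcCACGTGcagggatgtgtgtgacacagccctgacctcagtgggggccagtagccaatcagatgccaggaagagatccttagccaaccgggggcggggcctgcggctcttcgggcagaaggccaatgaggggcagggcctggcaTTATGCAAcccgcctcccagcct
Per3, chr4:151044666-151044915, minus strand, 250 bases: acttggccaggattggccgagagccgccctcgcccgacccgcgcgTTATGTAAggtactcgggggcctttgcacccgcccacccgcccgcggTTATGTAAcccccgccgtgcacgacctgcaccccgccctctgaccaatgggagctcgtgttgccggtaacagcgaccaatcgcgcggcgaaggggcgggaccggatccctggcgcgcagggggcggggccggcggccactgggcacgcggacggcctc
The Ciart window held CACGTG 3 times, starting 116, 58 and 44 bases before the RefSeq gene start. At least 1 copy was present in 7.15% of all 32851 windows, and 3 or more copies in 0.0883%. Cry1 held 1 CACGTG at 60 bases and 1 CACGTT at 79 bases before its start, the second motif being present in 4.68% of all windows. Bhlhe41 held 1 CACGTG at 153 bases. The first Per1 window held 1 CACGTG at 166 bases and 1 TTATGCAA at 24 bases, and TTATGCAA was found in 0.743% of windows. The Per3 window held TTATGTAA at 205 and at 158 bases; 0.938% of windows had at least 1 copy and 0.0213% had 2 or more. Cry2 held 1 CACGTT at 166 bases, and the second Per1 window held none of the motifs. TAGGTCA and TGACGTCA, present in 2.61% and 1.79% of all windows, did not occur in the members' windows. These are letter matches only.

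Values per library were not used here, since each deposited table holds 1 comparison of 2 groups. Group levels below are estimates in CPM (read counts scaled to library size) from the fold change and mean of each table, averaged over the 2 tables that hold the group. The 2 estimates of a group differed by at most 1.16 times, and because each table was normalized separately, levels set side by side across tables carry that uncertainty. CPM is not scaled to transcript length, so levels are compared within a gene and not between genes. Errors are approximate standard errors (SE) from the fold change and the likelihood-ratio statistic; their median over all genes of a table lay between 0.142 and 0.153 log2 units for liver, and between 0.318 and 0.366 for iWAT. A gene was called where the adjusted p, the deposited edgeR FDR over all genes of the table, was under 0.05. Against the labelled tissues, 9 hepatocyte genes summed to 114291 to 165168 CPM in liver and 2953 to 12203 CPM in iWAT, while 9 adipocyte genes summed to 24884 to 34527 CPM in iWAT and the 5 of them measured in liver to 43.9 to 63.6 CPM there. The hepatocyte gene Trf had the largest share of the hepatocyte sums in iWAT. In iWAT, marker genes of other tissues differed between diets, as given with the iWAT results.

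In liver, CR mice had more Cry1, Per2 and Bhlhe40 RNA than AL mice and less Bhlhe41 and Ciart RNA. Of the 8 repressors, 3 rose and 2 fell in CR liver, where 11.2% of 12636 genes were called (5.79% higher, 5.37% lower). In TR liver, Cry1 and Per2 rose and Bhlhe41 and Ciart fell, 4 of 8 genes, where 18.9% of 12691 genes were called (9.35% higher, 9.54% lower). The median log2 fold change of the 8 genes was 0.28 for CR minus AL and 0.24 for TR minus AL, beside -0.00 over all genes in each table. Both comparisons use the same AL libraries, so they are not independent of each other. In bulk tissue, fewer cells of a type and less RNA per cell cannot be told apart. The 9 hepatocyte genes summed to 149933 to 154217 CPM in CR, 159412 to 165168 CPM in TR and 114291 to 114952 CPM in AL liver, with 1 gene called higher in CR and 3 in TR. Some genes on the marker lists of other cell types also differed in the deposited liver tables. Of 5 fibroblast genes measured, Col1a1 (0.87 in CR, 1.54 in TR) and Col3a1 (0.90 and 0.84) were higher than in AL under both diets. Pdgfra (-0.20 and -0.38), Dcn (-0.03 and -0.22) and Dpp4 (0.22 and 0.17) were not called. The fibroblast genes summed to 325 CPM in CR against 298 CPM in AL, and 301 CPM in TR against 300 CPM in AL. Dcn and Dpp4 had the largest shares of these sums, with log2 mean CPM of 7.34 and 6.96 in the CR and AL comparison. Col3a1 had 4.11 there and Col1a1 0.69, so the sums say little about the collagen genes. Of 5 adipocyte genes measured, 3 were lower in CR (Cidec -2.65, Cfd -2.04 and Pnpla2 -0.52). In TR 2 were lower (Cidec -2.85, Cfd -2.47) and Lipe was higher (0.44). Fabp4, at 0.41 in CR and 0.36 in TR, was not called, and Adipoq, Plin1, Lep and Retn were not measured in liver. Cfd was scarce, at a log2 mean CPM of 0.04 in the CR and AL comparison and -0.05 in the TR and AL comparison. In TR liver Lyz2 (-0.61), a macrophage gene, and Kdr (-0.46), an endothelial gene, were lower, and Tie1 (0.47), endothelial, and Epcam (1.17), epithelial, were higher. Epcam was scarce as well, at a log2 mean CPM of 0.32 in the TR and AL comparison. Col1a1 was also low, at 1.17 in that comparison. The part of these markers in the results was not tested.

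**Figure D1:**
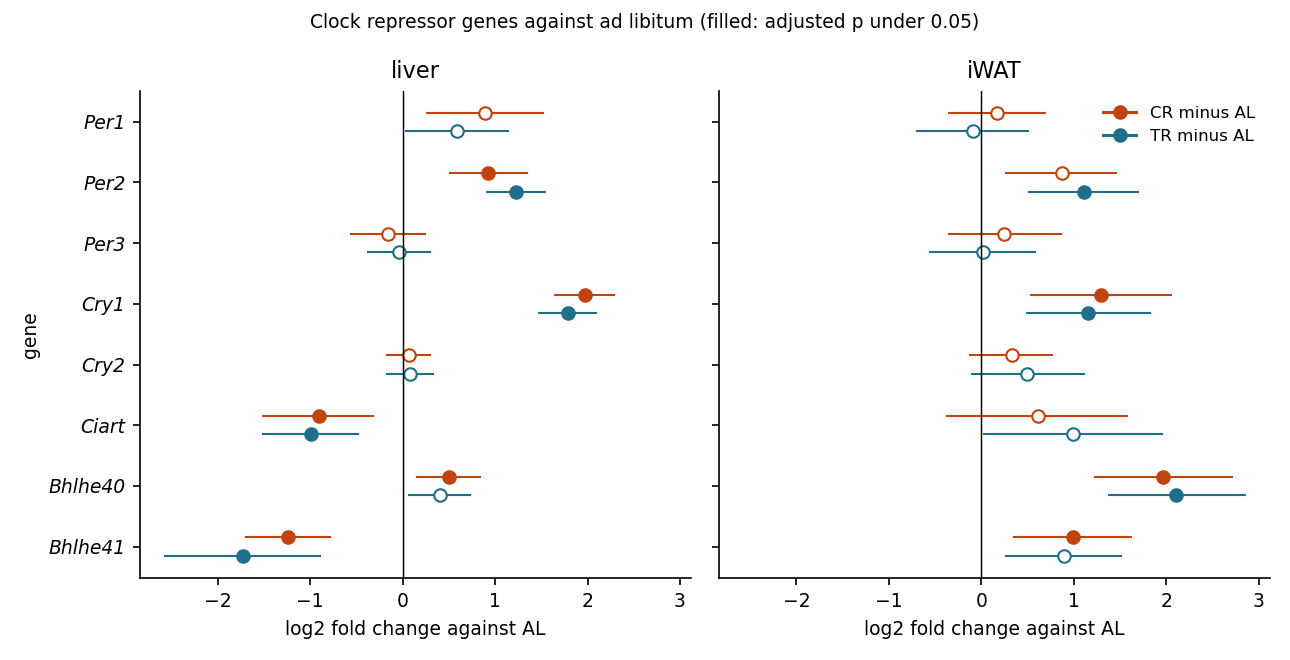
Log2 fold changes of the 8 clock repressor genes for CR minus AL and TR minus AL in liver and iWAT, from the authors' deposited tables, with approximate 95% intervals as lines. Filled points passed an adjusted p of 0.05: in liver Cry1 and Per2 lie right of 0 and Ciart and Bhlhe41 left of 0 under both diets, and in iWAT every filled point lies right of 0.

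Cry1, whose protein is a strong late repressor of CLOCK and BMAL1, had estimated means of 33.7 CPM in CR liver and 29.7 CPM in TR liver, against 8.76 CPM in AL liver. The authors' deposited table put Cry1 3.92-fold higher in CR than in AL liver (log2 fold change 1.97, approximate SE 0.16, adjusted p = 6.2e-30), the rank 6 gene by p of all genes in that table. In TR liver the deposited table gave a 3.45-fold higher level (1.79, SE 0.16, adjusted p = 2.6e-27, rank 10). The approximate 95% intervals were 1.65 to 2.29 and 1.48 to 2.09 log2 units. Cry1 had the highest log2 fold change of the 8 repressors in liver under both diets, although in TR its interval touches that of Per2, 0.91 to 1.54. Cry2, the other cryptochrome gene, stood at 41.8, 42.3 and 40.6 CPM in CR, TR and AL liver. Its log2 fold changes in the authors' deposited tables were 0.07 (interval -0.17 to 0.30) and 0.08 (interval -0.17 to 0.33), so that a change in Cry2 beyond those bounds was not seen at this precision.

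Per2, a period gene whose protein carries CRY into the repressor complex, had 86.3 CPM in CR liver and 107 CPM in TR liver, against 46.3 CPM in AL liver. The deposited log2 fold changes were 0.92 (SE 0.21, adjusted p = 4.1e-04) in CR and 1.23 (SE 0.16, adjusted p = 1.5e-12) in TR. Per1, its close relative, had 12.2 CPM in CR liver and 9.94 CPM in TR liver, against 6.71 CPM in AL liver. Neither Per1 value passed in the authors' deposited tables: 0.89 in CR (SE 0.32, adjusted p = 0.0505) lay just outside the threshold and 0.59 in TR (SE 0.28, adjusted p = 0.133) further from it. Per3, the period gene that mice can lose with little effect on their rhythm, showed 27.2, 29.6 and 30.9 CPM in CR, TR and AL liver, and its deposited log2 fold changes of -0.16 and -0.04 were called in neither diet (adjusted p = 0.701 and 0.903).

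Ciart had 5.36 CPM in CR liver and 5.07 CPM in TR liver, against 10.2 CPM in AL liver. It fell in both diets in the authors' deposited tables, by 0.91 log2 units in CR (SE 0.31, adjusted p = 0.0301) and by 0.99 in TR (SE 0.26, adjusted p = 0.00201). The DEC genes parted ways in liver. Bhlhe41 was scarce, with 1.12 CPM in CR and 0.796 CPM in TR liver against 2.63 CPM in AL liver. In the deposited tables it fell by 1.24 log2 units in CR (SE 0.23, adjusted p = 5.0e-06) and by 1.73 in TR (SE 0.43, adjusted p = 8.9e-04). The single listed transcript of Bhlhe41 had larger SEs in liver, 0.42 in CR and 0.62 in TR, and was not called. Bhlhe40 had 159 CPM in CR and 149 CPM in TR liver, against 114 CPM in AL liver. Its deposited log2 fold change of 0.50 passed narrowly in CR (SE 0.18, adjusted p = 0.0461), and 0.40 in TR did not pass (SE 0.17, adjusted p = 0.0743).

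In iWAT, Bhlhe40 and Cry1 rose under both diets, and no repressor fell. Of the 8 genes, 3 rose in CR iWAT (Bhlhe40, Cry1 and Bhlhe41), where 7.30% of 15295 genes were called (3.52% higher, 3.78% lower), and 3 rose in TR iWAT (Bhlhe40, Per2 and Cry1), where 10.0% of 15356 genes were called (4.76% higher, 5.24% lower). The median log2 fold change of the 8 genes was 0.74 for CR minus AL and 0.94 for TR minus AL, beside 0.02 and -0.04 over all genes.

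Bhlhe40 had 267 CPM in CR iWAT and 301 CPM in TR iWAT, against 72.7 CPM in AL iWAT. The authors' deposited tables gave log2 fold changes of 1.97 in CR (SE 0.38, adjusted p = 2.2e-05) and 2.11 in TR (SE 0.38, adjusted p = 2.3e-06), which are 3.92-fold and 4.33-fold higher levels. Bhlhe41 had 29.7 CPM in CR iWAT and 28.2 CPM in TR iWAT, against 16 CPM in AL iWAT. It rose by 0.99 log2 units in CR iWAT (SE 0.32, adjusted p = 0.0378) in the deposited table. The TR value, 0.89 (SE 0.32, adjusted p = 0.0509), lay just outside the threshold, and the 2 values differ by less than 1 SE. Gm43909, which overlaps Bhlhe41 on the other strand, had a deposited log2 fold change of 1.07 in CR iWAT (adjusted p = 0.272) at a log2 mean CPM of -0.21.

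Cry1 had 41.3 CPM in CR iWAT and 38.4 CPM in TR iWAT, against 17.9 CPM in AL iWAT, with deposited log2 fold changes of 1.30 (SE 0.38, adjusted p = 0.0161) and 1.16 (SE 0.34, adjusted p = 0.0115). Per2 had 37.6 CPM in CR iWAT and 45.1 CPM in TR iWAT, against 21.9 CPM in AL iWAT. In the authors' deposited tables Per2 passed in TR (1.11, SE 0.30, adjusted p = 0.00535) and missed narrowly in CR (0.87, SE 0.30, adjusted p = 0.0558). Cry2 (0.33 and 0.50), Per3 (0.25 and 0.02) and Per1 (0.17 and -0.09) had deposited log2 fold changes in CR and TR iWAT with adjusted p between 0.33 and 0.981. Ciart was scarce in iWAT, at 2.16 and 2.83 CPM in CR and TR against 1.5 CPM in AL, and its deposited values of 0.61 (SE 0.50, adjusted p = 0.53) and 0.99 (SE 0.49, adjusted p = 0.198) were not called. C920021L13Rik, which overlaps Ciart on the other strand, had deposited log2 fold changes of 0.21 in CR iWAT and 0.58 in TR iWAT (adjusted p = 0.843 and 0.487). Whether the counting used strand is not known, so reads of such pairs cannot be told apart.

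**Figure D2:**
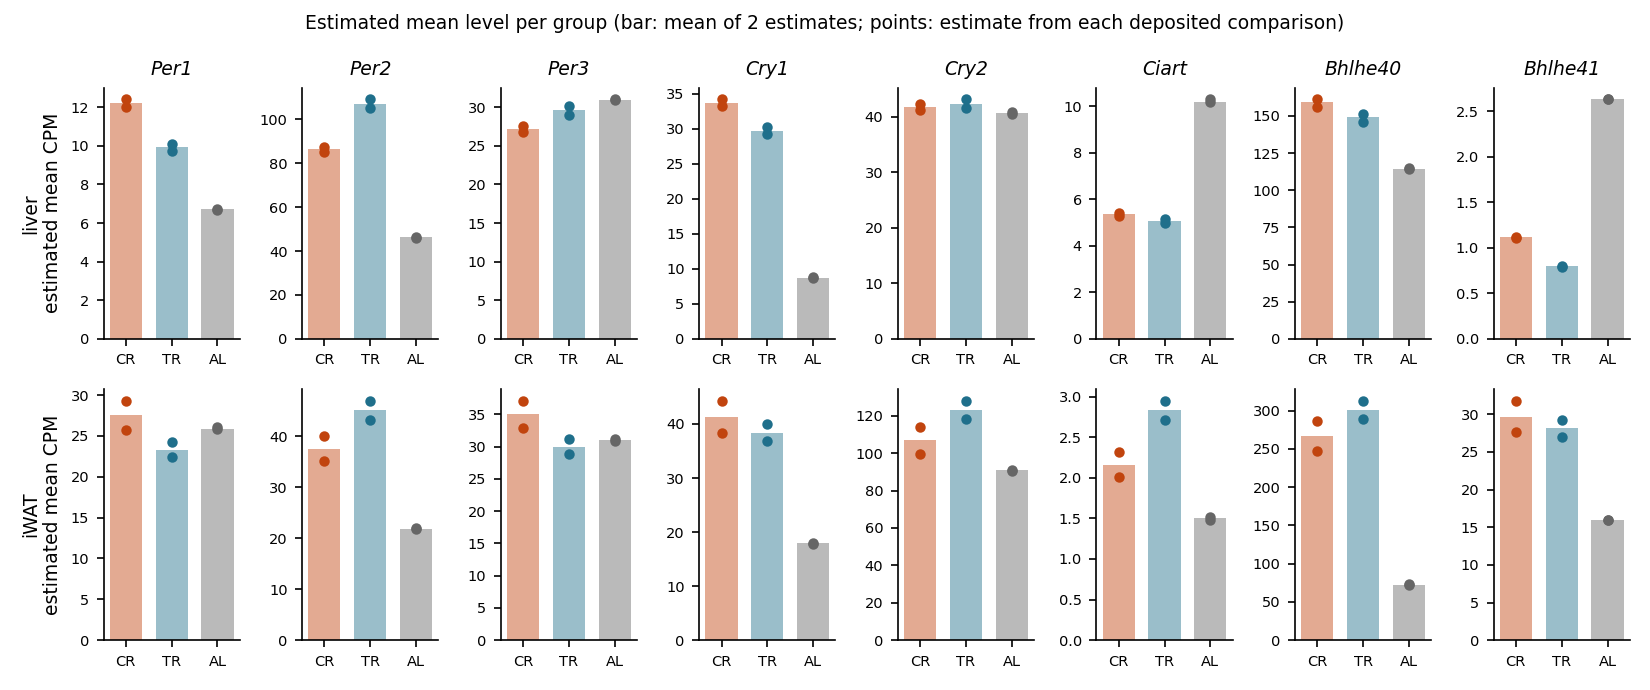
Estimated mean CPM of each clock repressor gene in CR, TR and AL mice, liver in the upper row and iWAT in the lower, each panel with its own axis from 0. Bars are the mean of 2 estimates and points are the estimates from the 2 deposited comparisons that hold the group; Cry1 in liver stands at 33.7 and 29.7 CPM in CR and TR against 8.76 CPM in AL, and Bhlhe40 in iWAT at 267 and 301 CPM against 72.7 CPM.

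Genes of other tissues moved in iWAT beside these results. Of 9 hepatocyte genes, 7 were lower in CR than in AL iWAT (median log2 fold change -3.78) and none was called in TR against AL (median 2.11). Their summed levels were 2953 to 3410 CPM in CR, 11051 to 12203 CPM in TR and 4324 to 4361 CPM in AL. Trf, with a log2 mean CPM of 11.69 in the CR and AL comparison, had the largest share of these sums. The log2 fold change of Trf there was -0.07, so the sums of CR and AL differ less than the other hepatocyte genes do. Of 15 skeletal muscle genes measured, none was called in CR against AL (median 1.22) and 6 were lower in TR (median -2.84), with sums of 6797 to 7401 CPM in CR, 432 to 466 CPM in TR and 3243 to 3260 CPM in AL. Between CR and TR iWAT, 8 of 9 hepatocyte genes were lower in CR (median -6.00) and 3 of 14 muscle genes measured were higher (median 4.07). None of 8 lymphocyte genes was called against AL (medians 1.18 in CR and 1.01 in TR), with sums of 462 to 533 CPM in CR, 390 to 422 CPM in TR and 220 to 231 CPM in AL. Of 6 fibroblast genes, 1 was lower in CR (Dcn, -1.28) and 2 in TR (Dcn, -1.54, and Pdgfra, -1.17), and the list summed to 1835 to 2093 CPM in CR, 1680 to 1820 CPM in TR and 3201 to 3226 CPM in AL. Of 8 macrophage genes, Mrc1 was lower under both diets (-1.04 in CR, -1.65 in TR), with sums of 896 to 1029 CPM in CR, 897 to 971 CPM in TR and 1348 to 1367 CPM in AL. Of 6 endothelial genes, Tek was lower under both diets (-0.91 in CR, -1.17 in TR), with sums of 693 to 795 CPM in CR, 670 to 725 CPM in TR and 933 to 942 CPM in AL. No epithelial gene of the 3 measured in CR and the 4 measured in TR was called against AL. The 9 adipocyte genes summed to 24884 to 28722 CPM in CR, 31862 to 34527 CPM in TR and 28272 to 28582 CPM in AL iWAT; none of them was called in CR against AL, while in TR Fabp4 (0.59) and Retn (0.81) were higher and Lep (-0.96) was lower. The part of these markers in the fold changes against AL was not tested.

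The diet effect differed between the tissues for the DEC genes under both diets, and for Ciart under TR. The difference was taken as the log2 fold change in iWAT minus that in liver, with an approximate test adjusted over all genes in both tables, which treats the tissues of a mouse as uncorrelated although 16 mice gave both. It was called for 2 of 8 repressors in CR minus AL, where 6.73% of 12012 genes were called, and for 3 of 8 in TR minus AL, where 7.81% of 12201 genes were called. Bhlhe41 was called lower than AL in liver under both diets, and higher than AL in iWAT under CR. Its TR value in iWAT, 0.89, was not called (edgeR adjusted p = 0.0509). The Bhlhe41 difference was 2.23 log2 units in CR (SE 0.40, approximate adjusted p = 6.2e-06) and 2.62 in TR (SE 0.53, adjusted p = 9.1e-05). These SEs come from the gene values, and the liver SEs of the single listed Bhlhe41 transcript were larger. Bhlhe40 differed by 1.47 in CR (SE 0.42, adjusted p = 0.0128) and by 1.71 in TR (SE 0.41, adjusted p = 0.00147), with the larger increase in iWAT. Ciart differed by 1.98 in TR (SE 0.55, adjusted p = 0.00894), while 1.52 in CR did not pass (SE 0.58, adjusted p = 0.0949). With a correlation of 0.3 assumed between the tissues, the CR difference of Ciart passed as well (adjusted p = 0.0256), and the CR count was 3 of 8. With -0.3 assumed, the CR difference of Ciart did not pass (adjusted p = 0.206). Bhlhe40 in CR (adjusted p = 0.0416) and Ciart in TR (adjusted p = 0.0346) still passed with -0.3, closer to the threshold.

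The remaining repressors were not called different between tissues. For Cry1 the iWAT minus liver difference was -0.67 in CR (interval -1.49 to 0.15) and -0.62 in TR (interval -1.35 to 0.11). For Per2 it was -0.06 in CR (interval -0.78 to 0.67) and -0.12 in TR (interval -0.78 to 0.55). Per1 gave -0.72 in CR (interval -1.54 to 0.10) and -0.68 in TR (interval -1.50 to 0.14), intervals that include 0. The level under AL also differed: AL mice had 16 CPM of Bhlhe41 in iWAT and 2.63 CPM in liver, and 1.5 CPM of Ciart in iWAT and 10.2 CPM in liver, from tables normalized separately and with no test.

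**Figure D3:**
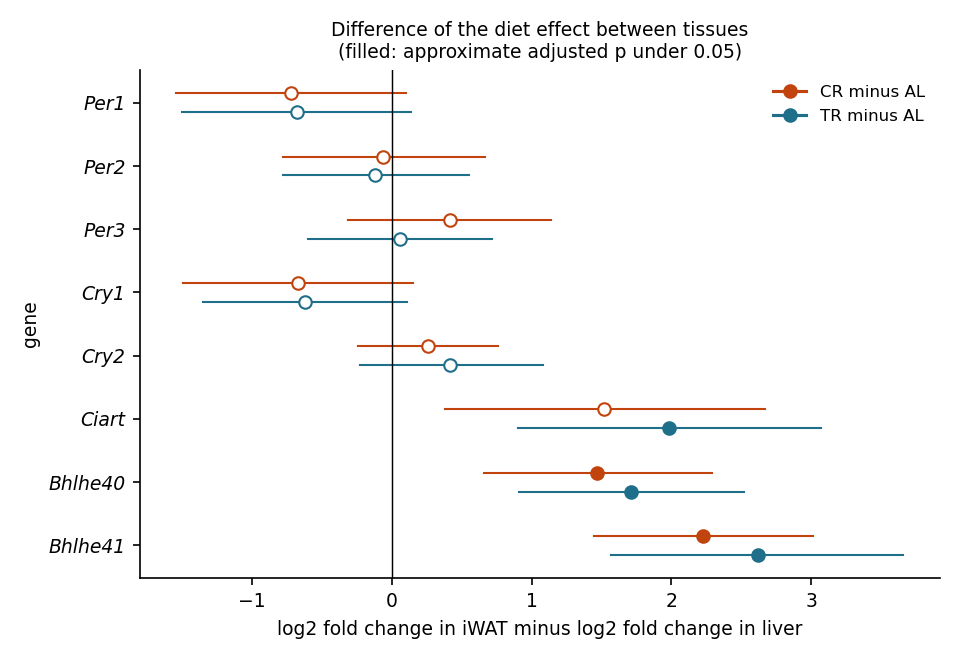
Difference between tissues in the diet effect, as the log2 fold change in iWAT minus that in liver, for CR minus AL and TR minus AL, with approximate 95% intervals. Filled points passed an approximate adjusted p of 0.05: Bhlhe41 at 2.23 and 2.62, Bhlhe40 at 1.47 and 1.71, and Ciart at 1.98 in TR.

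CR and TR were not told apart by any repressor gene. None of the 8 genes was called in CR minus TR in liver, where 0.469% of 12593 genes were called, or in iWAT, where 0.918% of 14699 genes were called, and in both tissues none had an unadjusted edgeR p under 0.05 in the deposited tables. In liver the log2 fold changes ran between -0.30 for Per2 (interval -0.70 to 0.10) and 0.49 for Bhlhe41 (interval -0.43 to 1.41). For Cry1 in liver the value was 0.19 (interval -0.15 to 0.52) and for Ciart 0.09 (interval -0.47 to 0.65). In iWAT they ran between -0.43 for Ciart (interval -1.19 to 0.33) and 0.20 for Per1 (interval -0.37 to 0.78). The intervals were narrowest for Cry2 in liver, -0.26 to 0.23. A missed threshold does not show that the diets act alike, and the intervals in iWAT are wide. The iWAT minus liver difference of CR minus TR was called for none of the 8 repressors, with every approximate adjusted p at 1 and the smallest unadjusted one at 0.281, for Ciart; 1.24% of 11878 genes were called.

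**Figure D4:**
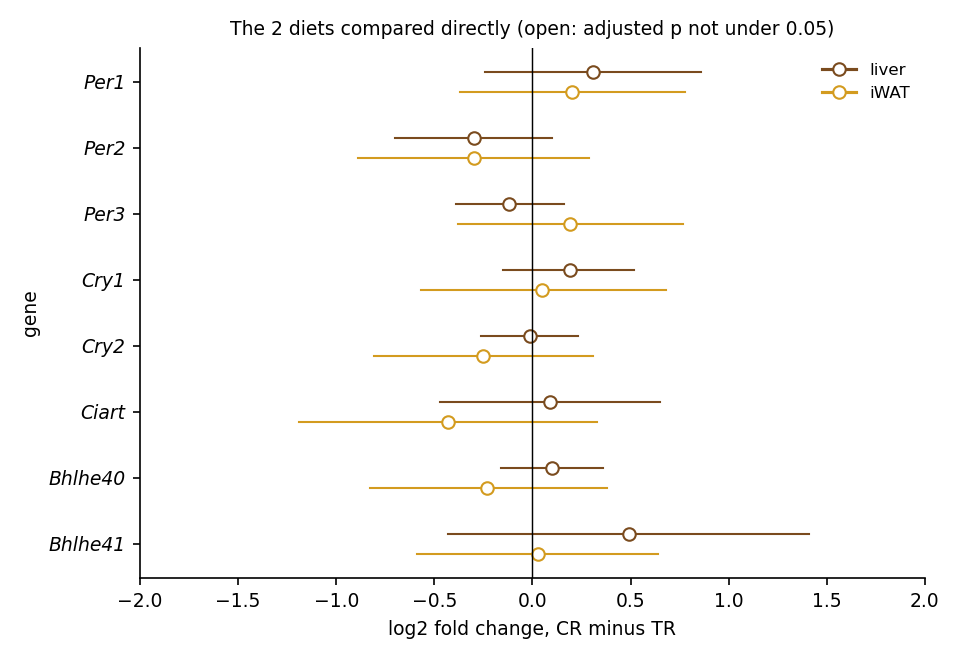
Log2 fold changes of the 8 clock repressor genes for CR minus TR in liver and in iWAT, from the authors' deposited tables, with approximate 95% intervals. Every interval crosses 0, with values between -0.30 and 0.49 in liver and between -0.43 and 0.20 in iWAT.

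The transcript tables were less sensitive, and their calls were all higher than AL. In liver 2 of 14 listed transcripts were called in CR and 2 of 14 in TR, where 2.66% and 3.94% of all transcripts were called. In both diets these were Cry1-201 (1.96 and 1.78 in the authors' deposited tables) and Per2-201 (0.91 and 1.23), each the single listed transcript of its gene. In iWAT Bhlhe40-201 was called in CR (1.95, SE 0.40, adjusted p = 3.1e-04), 1 of 15 where 2.45% were called. In TR iWAT 3 of 14 were called, where 3.55% were called: Bhlhe40-201 (2.15), Cry1-201 (1.17) and Per2-201 (1.12), as deposited. No transcript of 14 was called in CR minus TR in liver (0.323% called) or in iWAT (0.413% called).

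The Per1 transcripts had deposited values of opposite sign in liver, none of them called. Per1-201, Per1-202 and Per1-206 start at different places and took 36%, 30.4% and 33.7% of the Per1 CPM in the CR and AL liver table. The authors' deposited tables gave Per1-206 log2 fold changes of 3.86 in CR (SE 1.47, adjusted p = 0.187) and 3.46 in TR (SE 1.70, adjusted p = 0.364). Per1-201 had -0.73 (SE 1.16) and -0.70 (SE 1.00), and Per1-202 had 0.88 (SE 0.50) and 0.48 (SE 0.41) in the same tables. The SEs of Per1-201 and Per1-206 are several times those of the gene, and the difference between the transcripts was not tested. The first Per1 window printed above lies directly before the start of Per1-201, and the second window before that of Per1-206.

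Ciart-201, which held 73.1% of Ciart CPM in the CR and AL liver table, had deposited log2 fold changes of -1.16 in CR (SE 0.41, adjusted p = 0.13) and -1.15 in TR (SE 0.41, adjusted p = 0.102), the same side as the gene but not called. Bhlhe41-201, the single listed transcript of Bhlhe41, gave -1.29 (SE 0.42, adjusted p = 0.0749) in CR and -1.72 (SE 0.62, adjusted p = 0.103) in TR liver. Bhlhe40-201 held 94.7% of Bhlhe40 CPM in liver and at least 96.1% in iWAT; the retained-intron transcript Bhlhe40-204 had 1.55 in CR iWAT (SE 0.57, adjusted p = 0.156) and 1.36 in TR iWAT (SE 0.63, adjusted p = 0.299). Most of the Per3 CPM, 54.8% to 59.8% in the comparisons with AL, was assigned to Per3-204, which GENCODE lists as a processed transcript and not as protein coding.

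**Figure D5:**
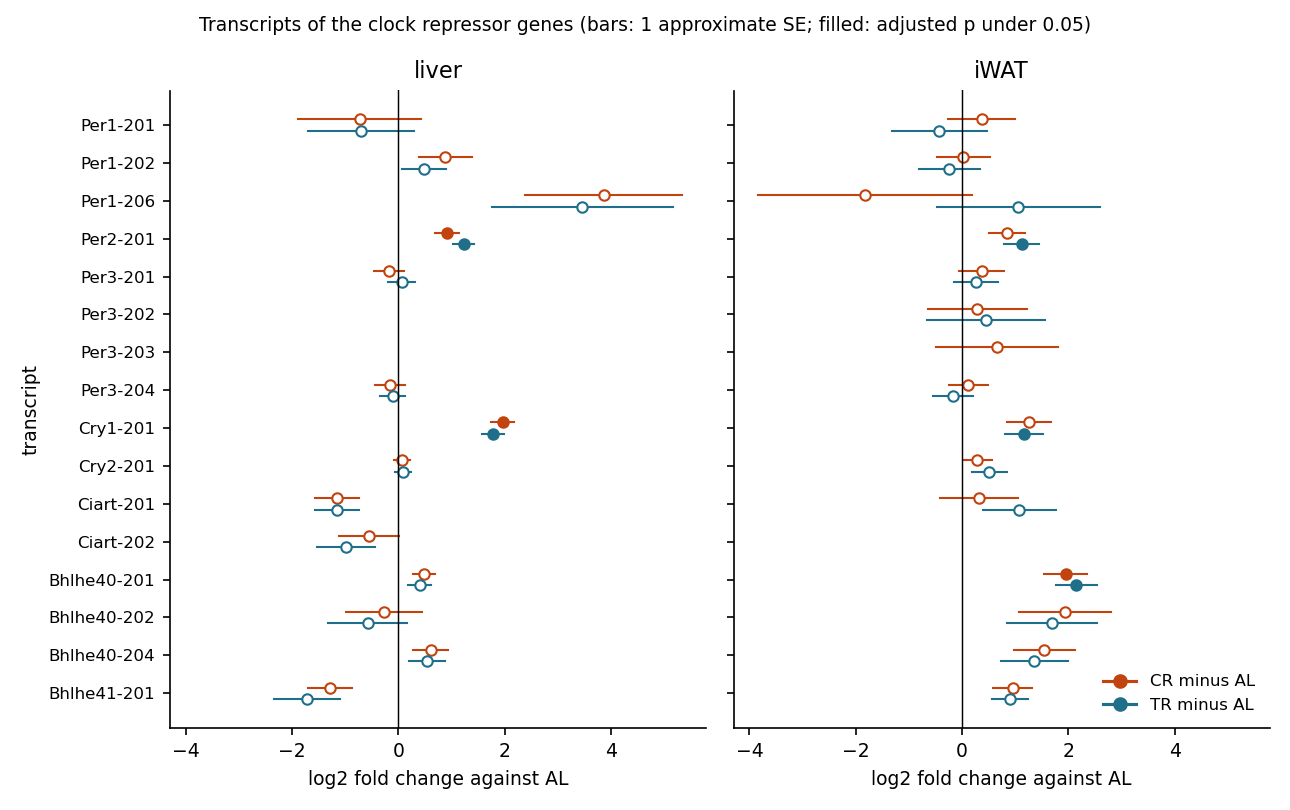
Log2 fold changes of the listed transcripts of the clock repressor genes for CR minus AL and TR minus AL in liver and iWAT, from the authors' deposited tables, with 1 approximate SE either side. Filled points passed an adjusted p of 0.05; Per1-206 (3.86 and 3.46) and Per1-201 (-0.73 and -0.70) lie on opposite sides of 0 in liver with wide errors.

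The nuclear receptors REV-ERB alpha and beta (Nr1d1 and Nr1d2) repress Arntl, Cry1 and Nfil3, among other genes. Of the 7 measured activator, ROR and REV-ERB genes in liver, 2 rose and 2 fell in CR, while in TR 1 rose and 2 fell, beside the 11.2% and 18.9% of all genes called there. In the authors' deposited tables Nr1d1 fell by 2.61 log2 units in CR liver (SE 0.36, adjusted p = 1.1e-10) and by 2.67 in TR liver (SE 0.29, adjusted p = 3.1e-18), and Nr1d2 fell by 0.98 and by 1.17. Arntl rose by 1.03 in CR liver (adjusted p = 0.00309) in the deposited table, while 0.73 in TR did not pass (adjusted p = 0.0509). Of the 8 measured in iWAT, 1 rose and 1 fell in CR, while in TR 1 rose and 3 fell, beside 7.30% and 10.0% of all genes, with deposited values for Nr1d1 of -1.16 (adjusted p = 0.00263) and -2.01 (adjusted p = 9.3e-07). Arntl gave -0.08 and -0.39 in iWAT and was not called.

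Of the 4 D-box factors, 1 rose and 1 fell in liver under each diet, and 1 rose and none fell in iWAT under each, beside the same shares of all genes. Dbp, a PAR bZIP activator driven by E-boxes, fell in liver by 2.49 log2 units in CR (SE 0.35, adjusted p = 3.1e-10) and by 2.79 in TR (SE 0.27, adjusted p = 1.3e-21) in the deposited tables. In iWAT Dbp had 0.26 in each diet, and the iWAT minus liver difference was 2.75 in CR (SE 0.51, approximate adjusted p = 1.6e-05) and 3.05 in TR (SE 0.50, adjusted p = 2.9e-07). Nfil3, the repressor at the same sites, rose in all 4 comparisons with AL, by 1.02 and 1.07 in CR and TR liver and by 1.33 and 1.84 in CR and TR iWAT. Tef and Hlf, the remaining PAR bZIP factors, were called in none of them, with deposited values between -0.24 and 0.40.

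Among 20 genes for kinases, ubiquitin ligases and partners that act on PER and CRY proteins, none rose and 1 fell in CR liver, and 1 rose and 3 fell in TR liver. In CR iWAT none rose and 1 fell, and in TR iWAT 1 rose and 2 fell. The 4 of 20 called in TR liver stand near the 18.9% of all genes, and the CR liver count lies below its 11.2%; in iWAT the shares of all genes were 7.30% in CR and 10.0% in TR. Btrc, a ligase component that marks PER for degradation, fell in liver by 0.49 and by 0.53 (adjusted p = 0.00171 and 5.1e-04), with -0.05 and 0.00 in iWAT, as deposited. Usp2, a deubiquitinase that is itself rhythmic, rose in TR in both tissues, by 0.83 in liver and 1.24 in iWAT, and its CR values of 0.60 and 0.93 did not pass.

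Of 12 E-box targets outside the core loop, 4 rose and none fell in CR liver, and 7 rose and none fell in TR liver. In CR iWAT 1 rose and 1 fell, and in TR iWAT 2 rose and 1 fell. Of all genes, 5.79% were higher in CR liver, 9.35% in TR liver, 3.52% in CR iWAT and 4.76% in TR iWAT, and 5.37%, 9.54%, 3.78% and 5.24% were lower in the same order. This list, like the others, was chosen with earlier results of these data known, so its counts are not an independent result. The lists also share genes, as Usp2 and Nampt are E-box targets here and are among the partners of PER and CRY above. Gys2, the liver glycogen synthase, rose in all 4 comparisons in the deposited tables, by 0.91 and 0.99 in CR and TR liver and by 2.49 and 2.80 in CR and TR iWAT. Tspan4, a tetraspanin membrane protein, rose in liver by 1.13 and 1.23. Fmo2, a flavin monooxygenase, fell by 1.45 in CR iWAT and fell by 1.39 in TR iWAT, and in liver it rose in TR by 0.86 (adjusted p = 2.5e-04). Its CR liver value of 0.22 was not called (adjusted p = 0.421). Fmo2 was called lower in CR minus TR liver, at -0.63 (deposited adjusted p = 0.0466). Of 11 glucocorticoid receptor targets measured in liver, 4 rose and 1 fell in CR, while in TR 3 rose and 1 fell; of 12 in iWAT none rose and 3 fell under each diet. Per1 is itself a known glucocorticoid and CREB target. Tsc22d3 and Cdkn1a are on both the glucocorticoid and the E-box list. Dusp1, a MAP kinase phosphatase on the glucocorticoid and CREB lists, rose in liver by 1.57 and 1.50, as deposited. It was not called in iWAT (0.45 and 0.44). Klf9 fell in liver by 0.66 and by 1.01. In iWAT Klf9 had -0.69 in CR, not called, and -1.23 in TR (deposited adjusted p = 0.0152). Of 9 CREB and immediate early genes measured in liver, 4 rose and none fell in CR, while in TR 2 rose and none fell; of 12 in iWAT none was called under either diet, where 1 in each diet had an unadjusted p under 0.05.

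The genes whose 4 deposited log2 fold changes against AL lay nearest to those of a repressor were sought among the 9799 genes whose log2 mean CPM reached 1 in all 4 tables, which leaves out Ciart and Bhlhe41. Nearness was the Euclidean distance over the 4 values, which share AL libraries within a tissue, and it carries no test. Among the 3 genes nearest to Cry1 were Srebf1 (distance 0.64), the regulator of fatty acid synthesis genes, and Scd1 (0.77), a fatty acid desaturase. Nearest to Bhlhe40 were Pmvk (0.16), an enzyme of the mevalonate pathway, Mtfp1 (0.30) and Tecr (0.33), an enzyme of fatty acid elongation. Nearest to Per2 were Tgm1 (0.34), Vps37b (0.35) and Paxx (0.37), and nearest to Per1 were Dync2h1 (0.27), Nolc1 (0.27) and Susd1 (0.30). Cry2 and Per3, whose values lay near 0, had many close neighbours, with Fbxw2 at 0.03 and Cnot3 at 0.05 the nearest.

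The genes lie on GRCm38 at the following places in GENCODE M21. Per1 is at chr11:69095217-69109960 on the plus strand, Per2 at chr1:91415982-91459324 and Per3 at chr4:151003652-151044665 on the minus strand. Cry1 is at chr10:85131700-85185064 and Cry2 at chr2:92403646-92434043, both on the minus strand. Ciart is at chr3:95878503-95882251 on the minus strand. Bhlhe40, at chr6:108660629-108666925 on the plus strand, and Bhlhe41, at chr6:145858243-145865558 on the minus strand, share a chromosome. Besides Ciart, Bhlhe40, Bhlhe41 and Cry2 are each overlapped by an annotated gene on the other strand, and Per3 lies within Camta1 on the same strand. Camta1 was called in none of the 6 comparisons, with deposited adjusted p of 0.624 or more.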

How the data were processed

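RNA of liver and iWAT was sequenced from 36 libraries of 20 mice, 6 per diet and tissue. Of the mice, 16 gave both tissues and 4 gave 1. The number 24 is used for a CR and a TR mouse, counted as different animals. RNA extraction used Trizol and library construction Illumina TruSeq, per the labels' protocols. The authors used bcl2fastq 2.20, STAR 2.5.3a, GRCm38.p5 and RSEM, per the submitters' processing notes. Not given in the sources used here were the versions of RSEM and edgeR, the filter, the normalization and the gene annotation.

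Per the file headers, the authors fitted edgeR generalized linear models, 1 table per comparison of genes or transcripts (12 tables). Each table gives, per the file headers, a log2 fold change and a mean CPM as log2. The score column is the deposited likelihood-ratio statistic. The p-value columns are the deposited unadjusted p and FDR. The deposited p lay within 5.0e-06 of the chi-square tail of the statistic, and the FDR within 0.00626 of Benjamini-Hochberg adjustment over each table. Depth per library is unknown, so no interval from counts is given; p-values measure the spread between libraries of separate mice.

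The approximate SE divides the absolute log2 fold change by the root of the statistic. Group CPM is the mean CPM split by the fold change. The test between tissues divides the difference by the root of the summed squared SEs, 2-sided, with Benjamini-Hochberg adjustment. It was run on simulated normal values, drawn with the same SEs and independently for each tissue. That run cannot check the SE approximation or the effect of shared mice. Named were all 8 members, up to 4 genes per pathway list with the smallest FDR in the comparisons with AL, and the 3 nearest genes per member, of which fewer are printed for Cry1, Cry2 and Per3. Some genes that this rule names are not reported here. The members and lists were chosen with earlier results of these data known. Alternatives were other FDR limits, Bonferroni, a fold limit, a CPM limit, centring, the indirect route, the most abundant transcript and a correlation between tissues of 0.3 or -0.3. Python 3.11.15, pandas 2.3.3 and scipy 1.17.1 were used.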

Additional observations from a re-analysis of the deposited data

Results flagged for a closer look

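The effect of diet differed between the tissues for 3 repressor genes, by the approximate test of the iWAT minus liver difference of log2 fold changes. For Bhlhe41 the difference was 2.23 for CR against AL, and 2.62 for TR against AL. For Bhlhe40 it was 1.47 for CR against AL, and 1.71 for TR against AL. For Ciart it was 1.98 for TR against AL. Bhlhe41 and Ciart are near the low end of the measured range in one of the tissues, with 0.796 CPM for Bhlhe41 in TR liver and 1.5 CPM for Ciart in AL iWAT, and the part of depth in these differences was not tested.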

How the results depend on the processing

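All 48 log2 fold changes of the members kept their direction after subtracting the median of all genes, and by the indirect route through the other 2 comparisons. The indirect route moved them by at most 0.01 in liver and 0.09 in iWAT. The comparisons of a tissue share their libraries and the medians lie near 0, so neither check could move the values much. The alternatives moved some counts. At an FDR under 0.01, 3 of 5 genes stayed called in CR minus AL liver, 1 of 3 in CR minus AL iWAT, and 1 of 3 transcripts in TR minus AL iWAT, while all 4 stayed called in TR minus AL liver. With Bonferroni adjustment the counts were 2 in CR minus AL liver, 2 in TR minus AL liver, 1 in CR minus AL iWAT and 1 in TR minus AL iWAT. At an FDR under 0.10, 2 transcripts were called in CR minus AL iWAT. With genes of log2 mean CPM 1 or more, Per1 was called in CR minus AL liver (adjusted p = 0.0478) and Bhlhe41 in TR minus AL iWAT (0.0473), and Bhlhe41 was left out in liver. The same limit in both tissues left 1 gene, Bhlhe40, with a called difference between tissues in CR minus AL, since Bhlhe41 has 0.90 in liver. In TR minus AL the limit left 2 genes with a called difference. Bhlhe41, at 0.77 in liver, was left out there too. The most abundant transcript gave the opposite sign for Per1 in liver (-0.73 in CR minus AL, -0.70 in TR minus AL), Ciart in CR minus TR liver (-0.01) and Per3 in TR minus AL iWAT (-0.17), none of them a called gene, and 7 calls of 4 genes (Ciart, Bhlhe40, Bhlhe41 and Cry1) were lost there. For Ciart and Bhlhe41 in liver the deposited transcript values were -1.16 and -1.29 in CR and -1.15 and -1.72 in TR. No paired analysis was possible because no values per library were used here; for the same reason leaving out each replicate, other normalizations and filters, and the replicate block were not run. Depth per library is unknown, and the approximate errors were about double in iWAT.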
